A study of Homo sapiens with 2 samples.

Results

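Plasminogen activators, serpins and matrix metalloproteinases are the genes by which a tumor cell cuts the matrix around it, and 9 of them were examined among the 16654 genes of an RNA-seq table from HUCCT-1 cells. HUCCT-1 is an established human intrahepatic cholangiocarcinoma cell line. The genes were taken by symbol, all 9 were in the table, and all 9 reached a mean of at least 1 FPKM. They are the plasminogen activators PLAU and PLAT, the receptor PLAUR, the inhibitor SERPINE2, the metalloproteinases MMP1, MMP7 and MMP14, and the metalloproteinase inhibitors TIMP1 and TIMP2. The treated culture received XY101, an antagonist of the nuclear receptor RORγ, at 5 μM for 48 h. Its comparison is a culture titled HUCCT1-Con2, taken here as a control given vehicle for 48 h. Whether a further control library was made is not known. The labels also name GSK805, which was not analysed here. Both were grown in the same serum-supplemented medium and sequenced as poly(A)-selected RNA. Each condition is 1 library, so no p-value, standard deviation or standard error could be given, and every difference below describes these 2 libraries.

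Urokinase, encoded by PLAU, and tissue plasminogen activator, encoded by PLAT, convert plasminogen into plasmin, a serine protease of broad specificity. Urokinase acts mostly at the cell surface, bound to the receptor encoded by PLAUR, and serpins trap both activators in inactive complexes. Matrix metalloproteinases (MMPs) are zinc proteases made as inactive precursors, some of which plasmin or other MMPs can activate, and TIMPs bind and block their active sites. In biliary epithelium and its tumors the 2 systems are known for their part in matrix turnover and invasion.

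MMP7 was higher and PLAU and PLAUR were lower in the XY101 library, while the other 6 genes differed by less than 1.5-fold. MMP7, matrilysin, a small secreted metalloproteinase made mainly by epithelial cells, was 2.43-fold higher with XY101 (log2 ratio 1.28). PLAU was 1.91-fold lower (log2 ratio -0.93) and PLAUR 1.53-fold lower (log2 ratio -0.62). All ratios are log2((XY101 + 0.1)/(vehicle + 0.1)) on FPKM values, which are fragment counts of a transcript scaled to its length and to the mapped total of the library.

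**Figure D1:**
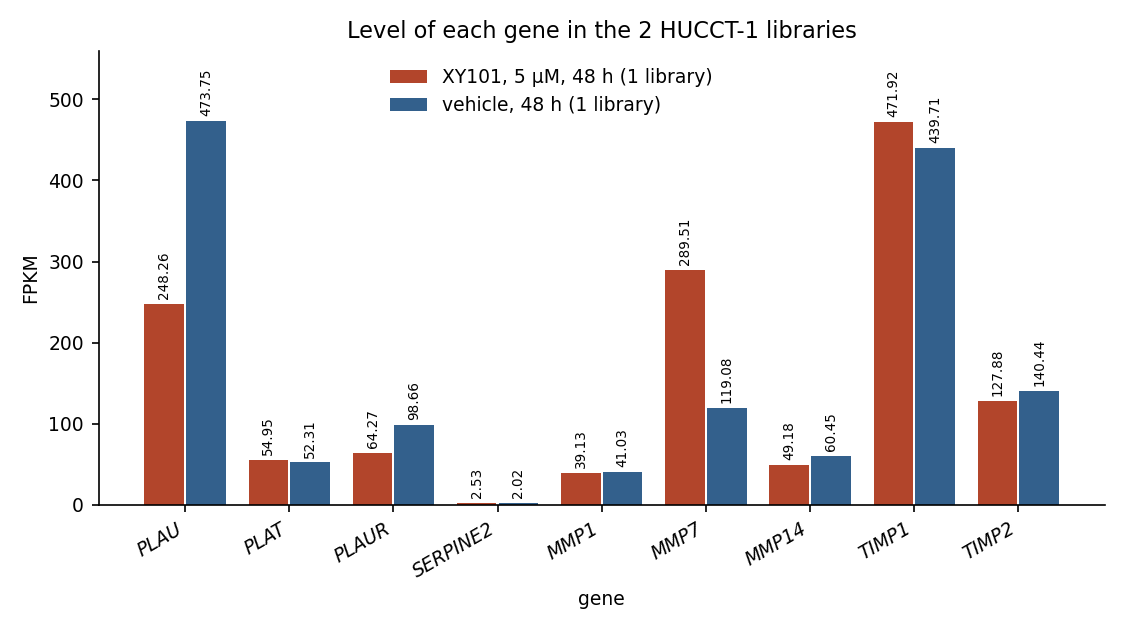
FPKM (vertical axis, from 0) of each of the 9 genes (horizontal axis), with 1 bar for the XY101 library on the left and 1 for the vehicle library on the right. MMP7 is 289.51 FPKM with XY101 and 119.08 FPKM with vehicle and PLAU 248.26 FPKM with XY101 and 473.75 FPKM with vehicle, while TIMP1 is 471.92 FPKM with XY101 and 439.71 FPKM with vehicle.

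Library depth was not stated in the sources used here. The spacing of low FPKM values gave about 17500000 fragments for the XY101 library and about 18000000 for the vehicle library. Of the low values, 87% with XY101 and 87.8% with vehicle then came out as whole fragments within 0.2. Depth was chosen by this same share, so the share is not a separate check of the depth. The XY101 library had 14719 genes above 0 FPKM and the vehicle library 14666. Counting intervals below are exact 95% Clopper-Pearson intervals made from these approximate fragment counts, at the median length of each gene's coding transcripts. They cover counting error only and leave out any spread between cultures. Markers of biliary epithelium were abundant, from 7.41 FPKM with XY101 for SOX9 to 4184.91 FPKM for KRT7, against 14.61 and 5080.23 FPKM with vehicle. Other cells were represented by 3 hepatocyte, 7 fibroblast, 6 leukocyte and 5 endothelial markers in the table, of which 0, 2, 2 and 0 reached a mean of 1 FPKM. The summed level of the fibroblast markers was 11.51 FPKM with XY101 and 8.41 with vehicle, most of it COL1A1, with DCN at 0 with XY101 and 0.03 FPKM with vehicle. That of the leukocyte markers was 51.77 FPKM with XY101 and 66.65 FPKM with vehicle, most of it CD68, with PTPRC at 0 with XY101 and 0.02 FPKM with vehicle. CD14, the other leukocyte marker at a mean of 1 FPKM, was 3.96 FPKM with XY101 and 2.21 FPKM with vehicle, 1.76-fold higher. The summed level of 8 biliary markers was 8435.44 FPKM with XY101 and 10050.05 FPKM with vehicle. The part of these markers in the results was not tested. In bulk RNA, fewer cells expressing a gene and less RNA per cell cannot be told apart.

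The MMP7 promoter is shown because MMP7 had the ratio farthest from 1 among the 9 genes, while PLAU had the larger difference in FPKM. The 247 bases printed are the part of its RefSeq window that lies upstream of the gene as GENCODE annotates it, read 5′ to 3′ along the gene on the minus strand (GRCh37, chr11:102401482-102401728). Capitals mark the AP-1 match, TGAGTCA, and the TATA box match, TATAAA.
MMP7 promoter: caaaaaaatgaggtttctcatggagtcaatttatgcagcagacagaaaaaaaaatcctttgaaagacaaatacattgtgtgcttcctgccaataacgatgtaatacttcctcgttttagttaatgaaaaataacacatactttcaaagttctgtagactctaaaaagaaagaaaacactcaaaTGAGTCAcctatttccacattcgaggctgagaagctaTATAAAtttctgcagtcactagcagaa

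The same AP-1 letters lie in the PLAUR window, and both sites are shown with 10 bases on either side because the 2 genes differed in opposite directions. AP-1 is a dimer of FOS and JUN family proteins that is known to act on promoters of this class. The MMP7 match begins at -67 from the RefSeq start (chr11:102401529-102401555, minus strand) and the PLAUR match at -186 (chr19:44174491-44174517, minus strand), both in GRCh37 and with the match in capitals.
MMP7 site: aacactcaaaTGAGTCAcctatttcca
PLAUR site: cacaactccaTGAGTCAgggccgagcc

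RefSeq promoter windows (sequences from the GRCh38.p14 table, each placed by an exact match in GRCh37) were at hand for 6 of the 9 genes, in 8 windows of 300 bases, 250 before and 50 after the start. PLAT, MMP1 and TIMP2 had no window and were not searched, so whether they hold any of these motifs is not known here. PLAU and SERPINE2 have 2 windows each. In PLAUR and both PLAU windows all 250 bases before the RefSeq start are exonic in GENCODE, whose longest annotations of these genes begin further upstream. Every motif was searched on both strands. TGANTCA, the AP-1 motif, was in 2 of the 8 windows and in 7.71% of all 35116 windows of that length. AGGAAG, an ETS motif, was in 4 of 8 and in 33.6% of all, in PLAU, PLAUR, MMP7 and TIMP1. AGGTCA, the half-site that ROR receptors bind, was in 1 of 8, at -91 from a SERPINE2 start, and in 13.8% of all. TATAAA was in 1 of 8 and in 11.5% of all, and CTTTGA, a TCF motif that was added after the MMP7 sequence had been read, was in 1 of 8 and in 12.9% of all. No 2 of these matches overlap in the MMP7 window. The matches are letters in a window and describe no binding in these cells.

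**Figure D2:**
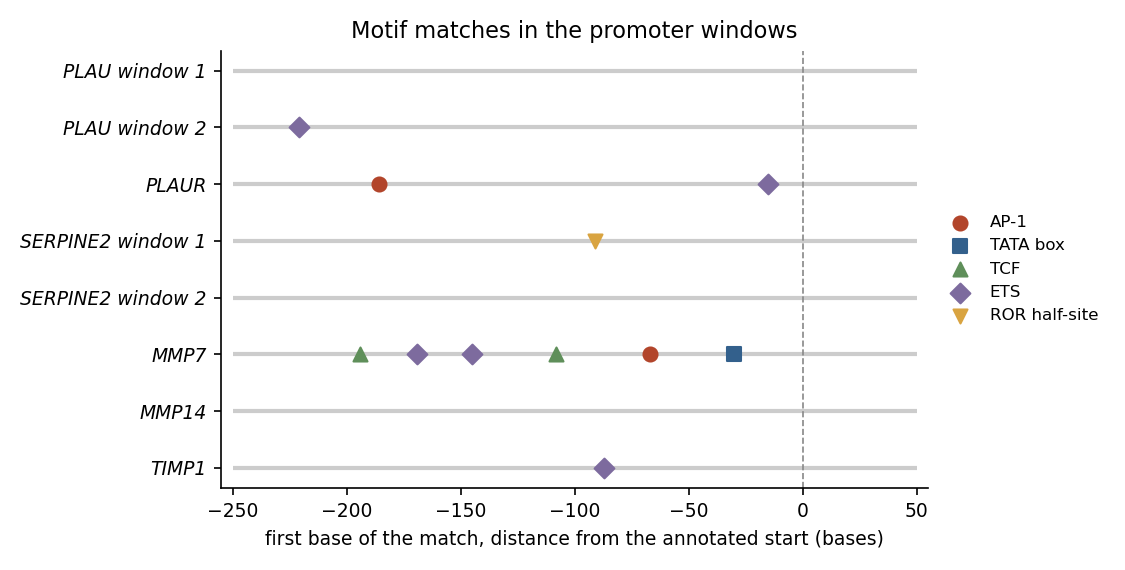
Position of each motif match as distance in bases from the annotated start (horizontal axis) in the 8 promoter windows of 6 genes (rows), 1 symbol per motif. The MMP7 window holds matches to AP-1, ETS, TATA box and TCF motifs, and the PLAUR window to AP-1 and ETS motifs. PLAU window 1, SERPINE2 window 2 and MMP14 hold none of the 5.

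PLAU, the urokinase gene, was 248.26 FPKM in the XY101 library and 473.75 FPKM in the vehicle library. The difference was -225.49 FPKM, with a counting interval of the log2 ratio from -0.97 to -0.90. PLAU was the most abundant of the 9 genes with vehicle, ranking 232 among all genes, and the third with XY101, ranking 410. Among the 10894 genes that averaged 1 FPKM or more, 89 (0.817%) had a ratio as low or lower, PLAU included. PLAU (NCBI gene 5328) spans 75668935 to 75677254 of chromosome 10, plus strand in GRCh37. Its exons share 915 bases with C10orf55, a long non-coding RNA on the opposite strand. Whether counting used strand was not stated in the sources used here, so reads of the 2 genes cannot be told apart.

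PLAUR, the anchored receptor that holds urokinase at the membrane, was 64.27 FPKM with XY101 and 98.66 FPKM with vehicle. Its counting interval ran from -0.78 to -0.45, or from -0.84 to -0.40 at the shortest coding transcript. A ratio as low or lower was found for 228 of 10894 genes (2.09%). Ligand and receptor were thus both lower in the XY101 library, PLAU by more, and PLAU per PLAUR on the FPKM scale was 3.86 with XY101 and 4.80 with vehicle. PLAUR (NCBI gene 5329) spans 44150247 to 44174699 of chromosome 19, minus strand.

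PLAT, the tissue plasminogen activator gene, was 54.95 FPKM with XY101 and 52.31 FPKM with vehicle. Its log2 ratio was 0.07, below the median gene at 0.09, and its counting interval from -0.02 to 0.16 spans 0. PLAT therefore did not differ detectably at this depth, and its sign turned to -0.02 when ratios were centred on the median gene. PLAU per PLAT was 4.52 with XY101 and 9.06 with vehicle, so urokinase RNA exceeded that of the tissue activator in both libraries. PLAT (NCBI gene 5327) spans 42032236 to 42065227 of chromosome 8, minus strand.

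SERPINE2, protease nexin-1, which inhibits thrombin and both plasminogen activators, was the least abundant of the 9 genes at 2.53 FPKM with XY101 and 2.02 FPKM with vehicle. These levels correspond to about 63 fragments with XY101 and 51 with vehicle. The log2 ratio was 0.31 with a counting interval from -0.23 to 0.89, so no difference was detectable at this depth. SERPINE2 (NCBI gene 5270) spans 224839762 to 224904035 of chromosome 2, minus strand.

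MMP7 was 289.51 FPKM in the XY101 library and 119.08 FPKM in the vehicle library, a difference of 170.43 FPKM. Its counting interval ran from 1.2 to 1.36, from about 4149 fragments with XY101 and 1713 with vehicle. Among 10894 genes 66 (0.606%) had a ratio as high or higher. In order of level among all genes MMP7 ranked 349 with XY101 and 873 with vehicle. The gene (NCBI gene 4316) has 1 coding transcript of 1119 nt and spans 102391239 to 102401481 of chromosome 11, minus strand, and no exon of another annotated gene overlaps it.

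MMP1, interstitial collagenase, which cleaves fibrillar collagen, was 39.13 FPKM with XY101 and 41.03 FPKM with vehicle. Its counting interval from -0.19 to 0.05 spans 0, so no difference was detectable. MMP1 (NCBI gene 4312) spans 102660132 to 102668891 of chromosome 11, minus strand, on the same chromosome as MMP7. Its exons share 223 bases with the pseudogene WTAPP1 on the opposite strand.

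MMP14, the membrane-type metalloproteinase that activates the MMP2 precursor with TIMP2 as an adaptor, was 49.18 FPKM with XY101 and 60.45 FPKM with vehicle. It was 1.23-fold lower, with a counting interval from -0.38 to -0.21, so the difference exceeded counting error. However, 929 of 10894 genes (8.53%) had a ratio as low or lower. MMP2 itself was 0.10 FPKM with XY101 and 0.18 with vehicle. MMP14 (NCBI gene 4323) spans 23305769 to 23318250 of chromosome 14, plus strand.

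The 2 inhibitors stood close to their vehicle levels. TIMP1, a secreted inhibitor of most soluble MMPs, was 471.92 FPKM with XY101 and 439.71 FPKM with vehicle, the most abundant of the 9 genes with XY101. Its log2 ratio of 0.10 (counting interval from 0.02 to 0.18, or from -0.17 to 0.38 at the shortest coding transcript) became 0.01 once centred on the median gene. TIMP2, which also binds MMP14, was 127.88 FPKM with XY101 and 140.44 FPKM with vehicle, with a log2 ratio of -0.14 and a counting interval from -0.18 to -0.09. TIMP1 thus stood above and TIMP2 below its vehicle level by 1.1-fold or less. TIMP1 (NCBI gene 7076) spans 47441807 to 47446188 of chromosome X, plus strand. TIMP2 (NCBI gene 7077) spans 76849059 to 76921469 of chromosome 17, minus strand, and its exons share 224 bases with CEP295NL on the same strand, which was 0.09 FPKM with XY101 and 0.22 with vehicle. They also share 367 bases with a long non-coding RNA, ENSG00000267601, on the opposite strand.

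The order of levels therefore differed between the libraries. With XY101 it ran from TIMP1 through MMP7, PLAU, TIMP2, PLAUR, PLAT, MMP14 and MMP1 to SERPINE2. With vehicle it ran from PLAU through TIMP1, TIMP2, MMP7, PLAUR, MMP14, PLAT and MMP1 to SERPINE2. MMP7 stood above PLAU with XY101, at 1.17 per PLAU, against 0.251 with vehicle. With 1 library per condition there is no spread between cultures against which neighbours in either order could be judged.

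Of the 9 genes, 1 was higher with XY101 by 2-fold or more and 0 were lower by that much. Over the 10894 genes that averaged 1 FPKM or more, 127 (1.17%) were higher by 2-fold or more and 76 (0.698%) lower. Centred on the median gene those counts were 96 and 95, and PLAU, at -1.03, then passed 2-fold on the lower side. At a threshold of 1.5-fold, 1 of the 9 was higher against 4.90% of all genes, and 2 of the 9 were lower against 2.32%. After rescaling to TPM, PLAUR at -0.57 no longer reached 1.5-fold, a log2 ratio of 0.58 in size, which left PLAU as the 1 lower gene. The median log2 ratio of the 9 genes was -0.07, against 0.09 over all genes, with 4 of the 9 above 0 and 5 below, and 7021 above and 3847 below among all 10894 genes. Since the 9 genes were chosen with earlier results of these data known, these counts are descriptions only.

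**Figure D3:**
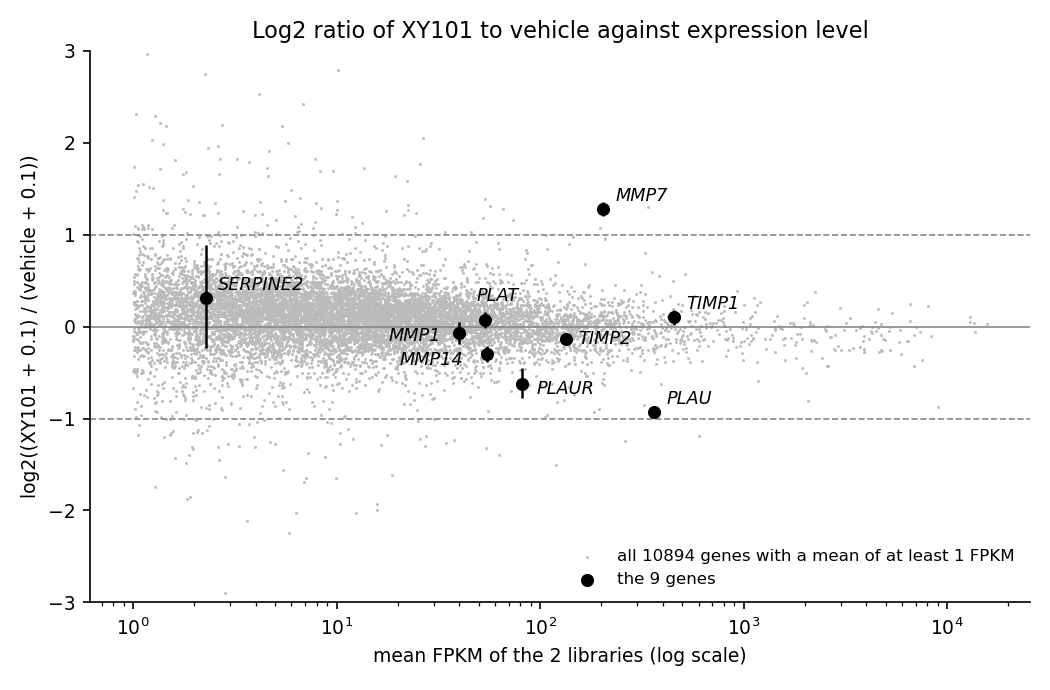
Log2 ratio of XY101 to vehicle (vertical axis) against mean FPKM of both libraries (horizontal axis, log scale) for 10894 genes averaging 1 FPKM or more (grey) and for the 9 genes (black, with 95% counting intervals as vertical lines). Dashed lines mark 2-fold, and 9 genes lie beyond the axis. MMP7 lies above the upper line at 1.28, PLAU just inside the lower line at -0.93 and PLAUR at -0.62.

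Within each library the balance of proteases to inhibitors can be read without any scaling between libraries, on the FPKM scale, which is per length. MMP7 per TIMP1 was 0.613 with XY101 and 0.271 with vehicle, and MMP7 per TIMP2 was 2.26 with XY101 and 0.848 with vehicle. MMP14 per TIMP2 was 0.385 with XY101 and 0.430 with vehicle. RNA ratios say nothing of the amounts of protein or of active enzyme.

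Summed over the 18 MMP genes in the table, the level was 435.32 FPKM with XY101 and 268.17 FPKM with vehicle. MMP7 made up 66.5% of this sum with XY101 and 44.4% with vehicle, and its own difference of 170.43 FPKM was larger than that of the sum. MMP14 made up 11.3% with XY101 and 22.5% with vehicle, and MMP1 8.99% with XY101 and 15.3% with vehicle. Summed over PLAU, PLAT, PLAUR, SERPINE2 and SERPINB2, the level was 414.79 FPKM with XY101 and 663.81 FPKM with vehicle. PLAU made up 59.9% of that sum with XY101 and 71.4% with vehicle, and PLAT 13.2% with XY101 and 7.88% with vehicle. In contrast, the sum of the 4 TIMP genes was 604.86 FPKM with XY101 and 585.12 FPKM with vehicle, with TIMP1 at 78% with XY101 and 75.1% with vehicle.

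**Figure D4:**
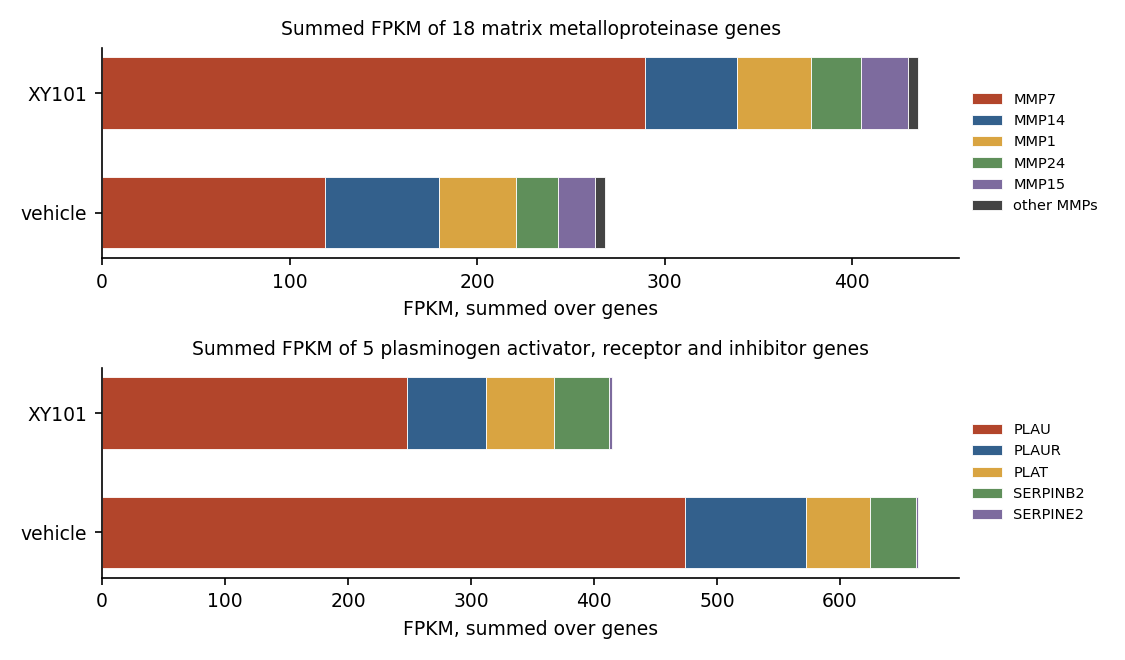
Summed FPKM (horizontal axes, from 0) of 18 MMP genes (top) and of 5 plasminogen activator, receptor and inhibitor genes (bottom), with the XY101 library above the vehicle library and 1 color per gene. The MMP sum is 435.32 FPKM with XY101 and 268.17 FPKM with vehicle, with MMP7 as the widest segment in both, and the other sum is 414.79 FPKM with XY101 and 663.81 FPKM with vehicle, with PLAU as the widest.

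Of 23 other genes of the plasminogen system reported here, 16 reached a mean of 1 FPKM, and 0 of these 16 differed by 1.5-fold in either direction. Over all 10894 genes at that mean, 4.90% were higher and 2.32% lower by 1.5-fold or more. A count of 0 among 16 therefore does not set this list apart. The log2 ratios of the 16 ran from -0.57 to 0.52 with a median of 0.15. The lowest was that of PLGRKT, 1.49-fold lower and just short of the threshold. The plasmin inhibitor gene SERPINF2 was 5.74 FPKM with XY101 and 4.14 with vehicle. SERPINB2, an intracellular and secreted inhibitor of urokinase, was 44.78 FPKM with XY101 and 37.07 FPKM with vehicle. Of genes that hold plasminogen at the cell surface, the plasminogen receptor gene PLGRKT was 34.86 FPKM with XY101 and 51.88 FPKM with vehicle, S100A10 1204.78 FPKM with XY101 and 1077.60 FPKM with vehicle, its partner ANXA2 1843.44 FPKM with XY101 and 2027.06 FPKM with vehicle, and the most abundant, the glycolytic enzyme gene ENO1, 3445.33 FPKM with XY101 and 3238.71 FPKM with vehicle. Plasminogen itself, PLG, was 0.09 FPKM with XY101 and listed at 0 with vehicle.

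Among the other MMPs, 15 of 20 listed genes were in the table and 5 reached a mean of 1 FPKM. None of these 5 differed by 1.5-fold, where 4.90% of all genes were higher and 2.32% lower by that much. The log2 ratios of the 5 ran from -0.09 to 0.37 with a median of 0.24. The membrane-type genes MMP24 and MMP15 were the most abundant, at 26.92 and 24.81 FPKM with XY101 and 22.82 and 19.55 FPKM with vehicle. The gelatinase MMP9 was 0.25 FPKM with XY101 and 0.11 FPKM with vehicle. A higher level with XY101 at 2-fold was therefore found for MMP7 and for no other MMP at a mean of 1 FPKM. Over all 10894 genes only 1.17% were higher by 2-fold or more, so the lack of a further call among so few MMPs is not a trait of the family. The difference between MMP7 and the others was not tested.

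Of 10 other inhibitors and inducers of MMPs, 7 reached the filter, with a median of -0.07. RECK, a membrane-anchored inhibitor of several MMPs, was 1.58 FPKM with XY101 and 2.99 FPKM with vehicle, 1.84-fold lower with a counting interval from -1.25 to -0.58. TIMP4 was 5.06 FPKM with XY101 and 4.94 FPKM with vehicle, and TIMP3 was listed at 0 with XY101 and was 0.03 FPKM with vehicle. CD63, a tetraspanin that binds TIMP1 at the cell surface, was the most abundant at 648.74 FPKM with XY101 and 607.38 FPKM with vehicle.

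Of 22 ADAM and ADAMTS proteases, relatives of the MMPs that shed membrane proteins or cut proteoglycans, 11 reached the filter with a median of -0.01. ADAM28 was 3.24 FPKM with XY101 and 1.58 with vehicle, 1.99-fold higher. ADAMTS12 was 69.41 FPKM with XY101 and 107.69 FPKM with vehicle, 1.55-fold lower, and ADAMTS9 0.91 FPKM with XY101 and 1.63 FPKM with vehicle, 1.71-fold lower. ADAM9 was the most abundant at 129.65 FPKM with XY101 and 122.73 FPKM with vehicle, with a log2 ratio of 0.08.

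Of 22 other serpins, 18 were in the table and 7 reached the filter, with a median of 0.26 and 6 of 7 above 0, where 7021 of all 10894 genes were also above 0. SERPINB7, an intracellular serpin of epithelia, was 8.22 FPKM with XY101 and 13.13 with vehicle, 1.59-fold lower. It was the 1 of the 7 that differed by 1.5-fold, where 4.90% of all genes were higher and 2.32% lower by that much. SERPINA1, which inhibits neutrophil elastase, was the most abundant at 214.25 FPKM with XY101 and 179.49 FPKM with vehicle.

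Of 26 pericellular serine proteases, their receptors and their Kunitz or WAP inhibitors, 20 reached the filter with a median of 0.01, 10 above and 10 below 0. The membrane protease gene TMPRSS4 was 3.71 FPKM with XY101 and 1.52 with vehicle, 2.35-fold higher. F3, tissue factor, which starts the extrinsic coagulation cascade, was 230.82 FPKM with XY101 and 416.36 FPKM with vehicle, 1.80-fold lower with a counting interval from -0.89 to -0.81. SPINT2, an inhibitor of membrane serine proteases, was the most abundant at 497.27 FPKM with XY101 and 455.82 FPKM with vehicle.

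**Figure D5:**
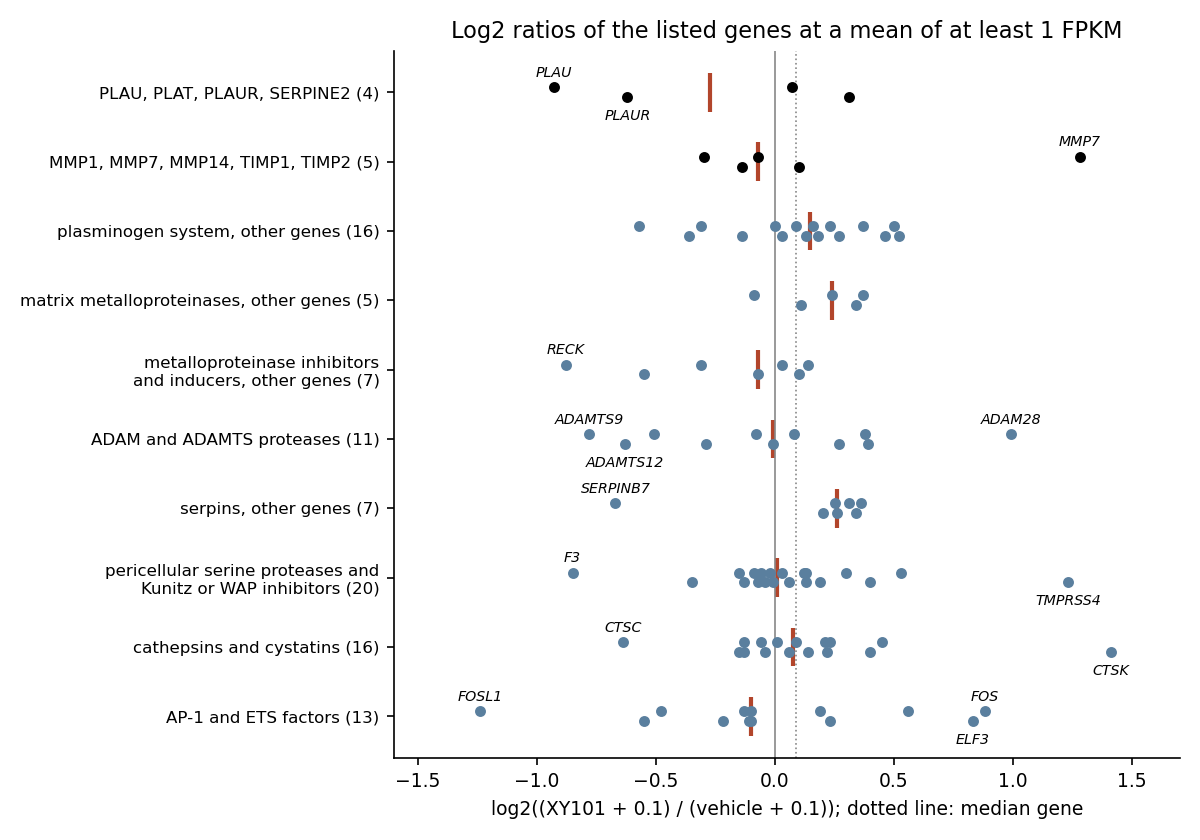
Log2 ratio of XY101 to vehicle (horizontal axis) of each listed gene at a mean of at least 1 FPKM (points), by list (rows, with the number of genes), the 9 genes in black and each list's median as a vertical bar. Genes past 1.5-fold are named. The dotted line is the median gene at 0.09, and the medians of the 8 lists below the 9 genes lie between -0.10 and 0.26.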

How the data were processed

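RNA of 1 XY101 library and 1 vehicle library of HUCCT-1 cells was measured. The authors deposited FPKM values per gene, rounded to 2 decimals. Upstream accounts differ: the study's methods name the GRCh37 build, RSEM and the aligners BWA and Bowtie 2, while the submitters' notes list HISAT2, HTSeq 0.11.2 and GRCh38. Which produced the values was not settled. Of 17424 rows, 770 carry shifted annotation text in place of values and were dropped. The log2 ratio used a pseudocount of 0.1 FPKM, which understates the difference of low genes. Genes with a mean of at least 1 FPKM were counted at 2-fold and 1.5-fold. No test was run, since each condition has 1 library.

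Depth was scanned from low values of genes with 1 RefSeq transcript of up to 2500 nt, keeping the smallest that scored 80% of the best or more, and is approximate. Fragments were computed with lengths from GENCODE release 44, less an offset of 300 nt (XY101) and 320 nt (vehicle). Genes were named by rule: the 9 members and, in each of the other lists, the genes at 1.5-fold and the most abundant one. Genes named outside this rule (MMP2, MMP9, TIMP3, TIMP4, PLG, PLGRKT, S100A10, ANXA2, CSTB, SERPINB2, SERPINF2, and MMP15, JUN, JUNB, ETS1, ETS2 and ETV1) were chosen after their values were seen. An item of the plasminogen list is not reported here and was left out of that list's counts and sums. The members and the lists were chosen with earlier results of these data known. Steps were tested on simulated data. Alternatives covered the pseudocount, filter, threshold, centring, scaling and transcript length. Software was numpy 2.4.6 and pandas 2.3.3 in Python 3.11.15, with scipy 1.17.1 for intervals and matplotlib 3.10.9 for figures.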

Additional observations from a re-analysis of the deposited data

How the results depend on the processing

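No library could be left out, and depth and culture spread limit every ratio. No paired analysis was possible because each condition has 1 library. The number of the 9 genes at least 2-fold higher was 1 under each of 7 alternatives. The number at least 2-fold lower was 0, except for 1 when centred on the median gene and 2 at 1.5-fold. Over all genes, higher and lower counts were 69 and 41 with a pseudocount of 1 FPKM, 409 and 268 without the filter, 53 and 34 at a mean of at least 5 FPKM, and 534 and 253 at 1.5-fold. The log2 ratio ran from 1.19 to 1.32 for MMP7, from -1.03 to -0.89 for PLAU and from -0.71 to -0.57 for PLAUR over the pseudocounts, centring and scaling to TPM. The TIMP1 counting interval included 0 at the shortest coding transcript.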

Other observations

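Cathepsins, the lysosomal proteases that also act outside the cell, and their cystatin inhibitors had 16 of 18 listed genes at a mean of at least 1 FPKM, with a median log2 ratio of 0.08. CTSK, a collagen-cleaving cathepsin, was 1.52 FPKM with XY101 and 0.51 FPKM with vehicle, 2.66-fold higher, with a counting interval from 0.67 to 2.72. CTSC, which activates serine proteases of granules, was 79.17 FPKM with XY101 and 123.52 FPKM with vehicle, 1.56-fold lower. By the mean of both libraries CST6, cystatin E/M, was the most abundant, at 597.01 FPKM with XY101 and 661.37 FPKM with vehicle. CSTB, cystatin B, was above it with XY101, at 621.02 FPKM with XY101 and 615.83 FPKM with vehicle.

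AP-1 and ETS factors that are known to act on promoters of this class had 13 of 14 listed genes past the filter, with 5 above and 8 below 0 and a median of -0.10, against 7021 above and 3847 below 0 among all 10894 genes. FOSL1 was 155.94 FPKM with XY101 and 369.29 FPKM with vehicle, 2.37-fold lower with a counting interval from -1.31 to -1.18. FOS was 3.26 FPKM with XY101 and 1.72 FPKM with vehicle, but its counting interval from -0.03 to 1.87 spans 0. ELF3, an epithelial ETS factor, was 108.86 FPKM with XY101 and 61.21 FPKM with vehicle, 1.78-fold higher. ETV1 was also higher, at 3.41 FPKM with XY101 and 2.28 FPKM with vehicle. In contrast, ETS1 was 36.95 FPKM with XY101 and 54.29 FPKM with vehicle and ETS2 20.33 FPKM with XY101 and 28.43 FPKM with vehicle. JUNB was 151.10 FPKM with XY101 and 132.51 FPKM with vehicle and JUN 32.69 FPKM with XY101 and 35.06 FPKM with vehicle. Whether any of these levels bears on MMP7, PLAU or PLAUR was not tested.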
